A study of Homo sapiens with 9 samples.

Results

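Knockdown of ERRα and treatment with imatinib were compared directly in GIST-T1 (T1) cells, a human cell line grown from a gastrointestinal stromal tumor (GIST). The comparison uses 6 of the 9 RNA-seq libraries of the series, chosen by their labels. In 3 of them (siERRα, libraries S4, S5 and S6) the cells received an siRNA against ESRRA, the gene of ERRα, and in the other 3 (imatinib, S16, S17 and S18) they received the non-target siRNA together with 50 nM imatinib. The remaining 3 libraries (siNC, S1, S2 and S3) had the non-target siRNA and no drug. They do not enter the direct difference and were read beside it, to describe which arm lay further from the control level. All 9 carry the same KIT genotype, an exon 11 deletion labelled del560-79, all were transfected, and all were harvested at 48 h. The arms thus differ in the siRNA and in the drug at once, and T1 is a single cell line.

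KIT is a receptor tyrosine kinase that, when mutated in GIST, signals without its ligand through the RAS, RAF, MEK and ERK kinases and through PI3K and AKT. Imatinib occupies the ATP site of KIT and so lowers the output of these pathways, which includes a layer of feedback inhibitors that ERK itself induces. ERRα is an orphan nuclear receptor that binds an extended recognition site in DNA together with PGC-1 coactivators, and it is best known for driving genes of mitochondrial respiration.

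The 9 libraries held 37527236 to 49363002 counts in genes, and 16976 of the 61209 gene symbols had enough counts to be tested. Libraries of 1 group differed by more than sampling noise (their counts gave a chi-square of 3.77 to 16.5 for each degree of freedom), so none was present under 2 names. Whether they came from separate cultures is not stated in the labels or methods, so every p-value here rests on the spread among these libraries, which may be technical. In such bulk libraries fewer cells of a type and less RNA per cell cannot be told apart. In a principal component analysis of the 6 libraries compared, the leading component held 83.4% of the variance, with siERRα between −22.3 and −21.7 and imatinib between 20.9 and 22.6. The 7 GIST markers were all expressed, at a summed 3560 to 3940 CPM (a gene's counts scaled to the normalized library size). All 10 leukocyte markers stayed under 1 CPM in every library, as did 8 of 9 neural and glial, 4 of 7 endothelial and 9 of 12 epithelial markers, with CD3D, MS4A1, KRT5, ELAVL4, SNAP25 and SOX10 at 0. The epithelial sum was 280 to 303 CPM in siERRα and 194 to 223 CPM with imatinib, and its part in the results below was not tested. This sum was mostly KRT18, at a mean of 280 CPM in siERRα and 196 CPM with imatinib. CDH1 went the other way, at 0.232 and 0.831 CPM, and of the epithelial markers 1 was called higher in siERRα and 1 lower.

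ESRRA itself showed that the labels fit the libraries. It stood at 1.41, 0.757 and 1.34 CPM in siERRα S4, S5 and S6 and at 30.4, 32.0 and 35.6 CPM in imatinib S16, S17 and S18. The siNC libraries held 40.7, 44.7 and 40.9 CPM, so that imatinib lay a little below the control, and the direct difference was −4.82 on the log2 scale (95% confidence interval −5.10 to −4.53; adjusted p = 9.55e-15, edgeR quasi-likelihood test). KIT stood at 1275, 1477 and 1346 CPM in siERRα and at 1496, 1630 and 1452 CPM with imatinib, and the groups overlapped. Its direct difference of −0.16 (95% confidence interval −0.29 to −0.03; adjusted p = 0.0326, edgeR) lost its call without imatinib S17 (0.121), siERRα S4 (0.18) or siERRα S6 (0.067). Against siNC, at 1272 to 1328 CPM, KIT rose with imatinib by 0.23 (95% confidence interval 0.10 to 0.35; adjusted p = 0.00524, edgeR), with every imatinib library above every siNC library, and its difference in siERRα was 0.07 (adjusted p = 0.476, edgeR).

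A gene is called a DEG here when its adjusted p lies under 0.05 and its log2 fold change, with siERRα as the numerator, is 0.5 or more in either direction. There were 4468 DEGs between the arms, 26.3% of the genes tested. Of these 1795 were higher in siERRα (10.6% of all genes) and 2673 were lower (15.7%), so that the lower ones made up 59.8%. The counts of higher and lower DEGs in each gene list below are to be read against these shares of all genes. In size the log2 fold changes had a median of 0.77 for the higher and 0.92 for the lower DEGs, and over all genes tested the median difference was −0.004. The libraries of the arms did not overlap in 1751 of the 1795 higher and 2618 of the 2673 lower DEGs, against 56.9% of all genes tested. For scale, siERRα against siNC gave 336 genes higher (1.98%) and 897 lower (5.28%), and imatinib against siNC gave 1797 higher (10.6%) and 1191 lower (7.02%). These comparisons share libraries with the direct one and with each other.

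**Figure D1:**
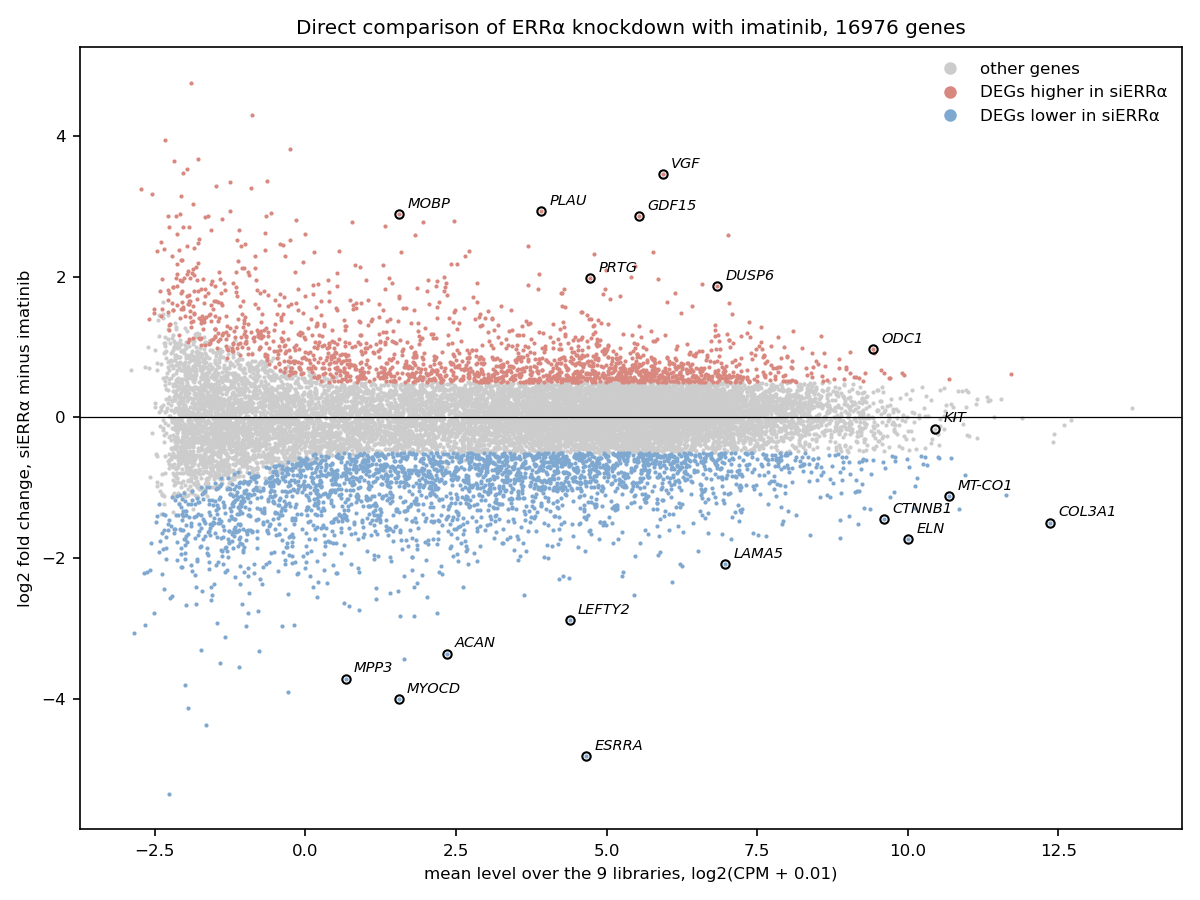
Log2 fold change of siERRα minus imatinib against the mean level over the 9 libraries, as log2(CPM + 0.01), for the 16976 genes tested (1 point each, DEGs in color, 18 genes circled). ESRRA lies lowest among the circled genes at −4.82, VGF highest at 3.45, and KIT lies near the line of no difference.

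The siNC level was set between the arms to describe which arm lay further from it. It was measured for each DEG as a position, 0 for the siERRα level and 1 for the imatinib level, on group means of log2(CPM + 0.5). In 1652 DEGs (37.0%) siNC lay within 0.25 of the siERRα level, called here the imatinib side because the imatinib mean lay further away. In 453 (10.1%) it lay within 0.25 of the imatinib level, the siERRα side. In 2096 (46.9%) siNC lay in between, with the arm means to either side of it, and in 193 (4.32%) and 74 (1.66%) it lay beyond siERRα or beyond imatinib, with both arm means on the same side. These classes rest on group means and do not show that each arm differed from siNC. MYC, for example, was classed as between although its difference with imatinib did not pass (0.19, adjusted p = 0.249, edgeR). Lower DEGs lay on the siERRα side in 334 cases (12.5%) and higher DEGs in 119 (6.63%).

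**Figure D2:**
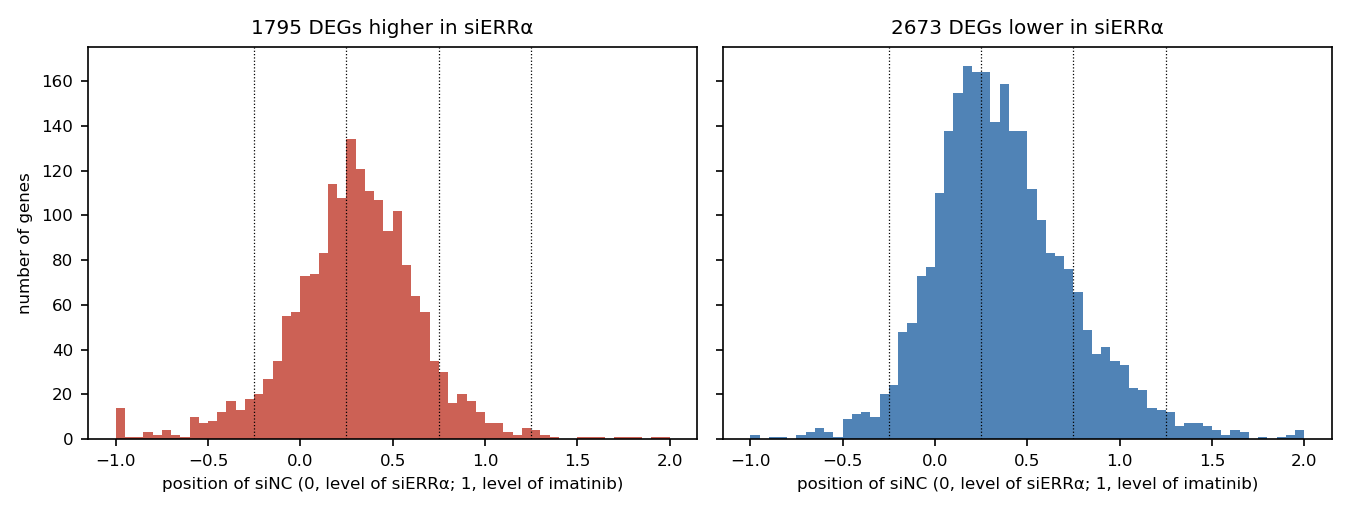
Number of DEGs by the position of the siNC mean between the arms (0, siERRα level; 1, imatinib level), for the 1795 DEGs higher and the 2673 lower in siERRα, with dotted lines at the edges of the classes; the end bars hold all values at or past −1 and 2. Most genes lie between 0 and 0.75, and 12.5% of the lower DEGs lie on the siERRα side against 6.63% of the higher ones.

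Among the 12 DEGs that were highest in siERRα over imatinib by the naming rule, 8 were near the siNC level or moderately under it in siERRα and far below it with imatinib. VGF, a neuropeptide precursor, stood at 86.9 ± 11.4 CPM in siERRα and 88.7 ± 6.79 CPM in siNC (SD, n = 3 each), and at 7.67, 6.31 and 9.84 CPM with imatinib (direct difference 3.45, standard error 0.132). PLAU, the urokinase that activates plasminogen, stood at 18.1, 17.3 and 17.3 CPM in siERRα and 2.44, 1.83 and 2.62 CPM with imatinib (2.93), against 24.5 to 27.1 CPM in siNC. GDF15, a stress-induced cytokine of the TGFβ family, stood at 62.0, 52.9 and 52.8 CPM in siERRα and 7.70, 6.41 and 9.07 CPM with imatinib (2.86). In all 3 genes every imatinib library lay far under every other library, while PLAU and GDF15 also fell in siERRα, by 0.55 and 0.45. The cytokine LIF (2.77), the prostaglandin synthase PTGS2 (2.59) and the matrix protease MMP10 (2.59) were low with imatinib in the same way, with siERRα means of 5.38, 146 and 4.37 CPM and imatinib means of 0.788, 24.2 and 0.724 CPM. The protocadherin gene PCDH12 (2.43) and ARC, an early response gene of neurons (2.36), fell in both arms, further with imatinib, while GADD45G (2.37), ASB2 (2.35) and the potassium channel gene KCNJ15 (2.71) stood above siNC in siERRα and below it with imatinib. MOBP, best known from myelin, was the exception. It stood at 6.81, 6.86 and 6.67 CPM in siERRα, against 0.867, 0.862 and 1.01 CPM with imatinib and 0.873 to 1.21 CPM in siNC, so its difference of 2.89 lay on the siERRα side.

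Among the 12 lowest, after ESRRA, 7 lay on the imatinib side. MYOCD, the coactivator that switches on smooth muscle genes, stood at 0.335, 0.631 and 0.463 CPM in siERRα and at 8.13, 9.05 and 5.96 CPM with imatinib (direct difference −4.01, standard error 0.217), with siNC at 0.458 to 0.615 CPM. It was therefore near the control in siERRα and high only in the imatinib libraries. LEFTY2, an extracellular antagonist of nodal signaling, stood at 6.60, 6.46 and 6.79 CPM in siERRα and 49.0, 50.4 and 46.3 CPM with imatinib (−2.88), and the muscle gene ITGB1BP2 (−3.44), COL23A1 (−2.78), GNG7 (−2.73), C1QTNF7 (−2.82) and STON1 (−2.59) were likewise high in the imatinib libraries and near siNC in siERRα. ACAN, the proteoglycan aggrecan, moved in both arms, at 0.860, 1.18 and 0.618 CPM in siERRα, 4.94 to 5.33 CPM in siNC and 10.5, 8.19 and 8.94 CPM with imatinib (−3.36). ZNF185 (−2.82) and LRATD2 (−2.68) also lay between. MPP3, a membrane scaffold protein, lay on the siERRα side, at 0.168, 0.210 and 0.129 CPM in siERRα against 2.20, 2.26 and 2.38 CPM with imatinib (−3.71). The adjusted p of these 23 genes other than ESRRA ran from 5.73e-15 to 5.41e-07 in edgeR's quasi-likelihood test.

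**Figure D3:**
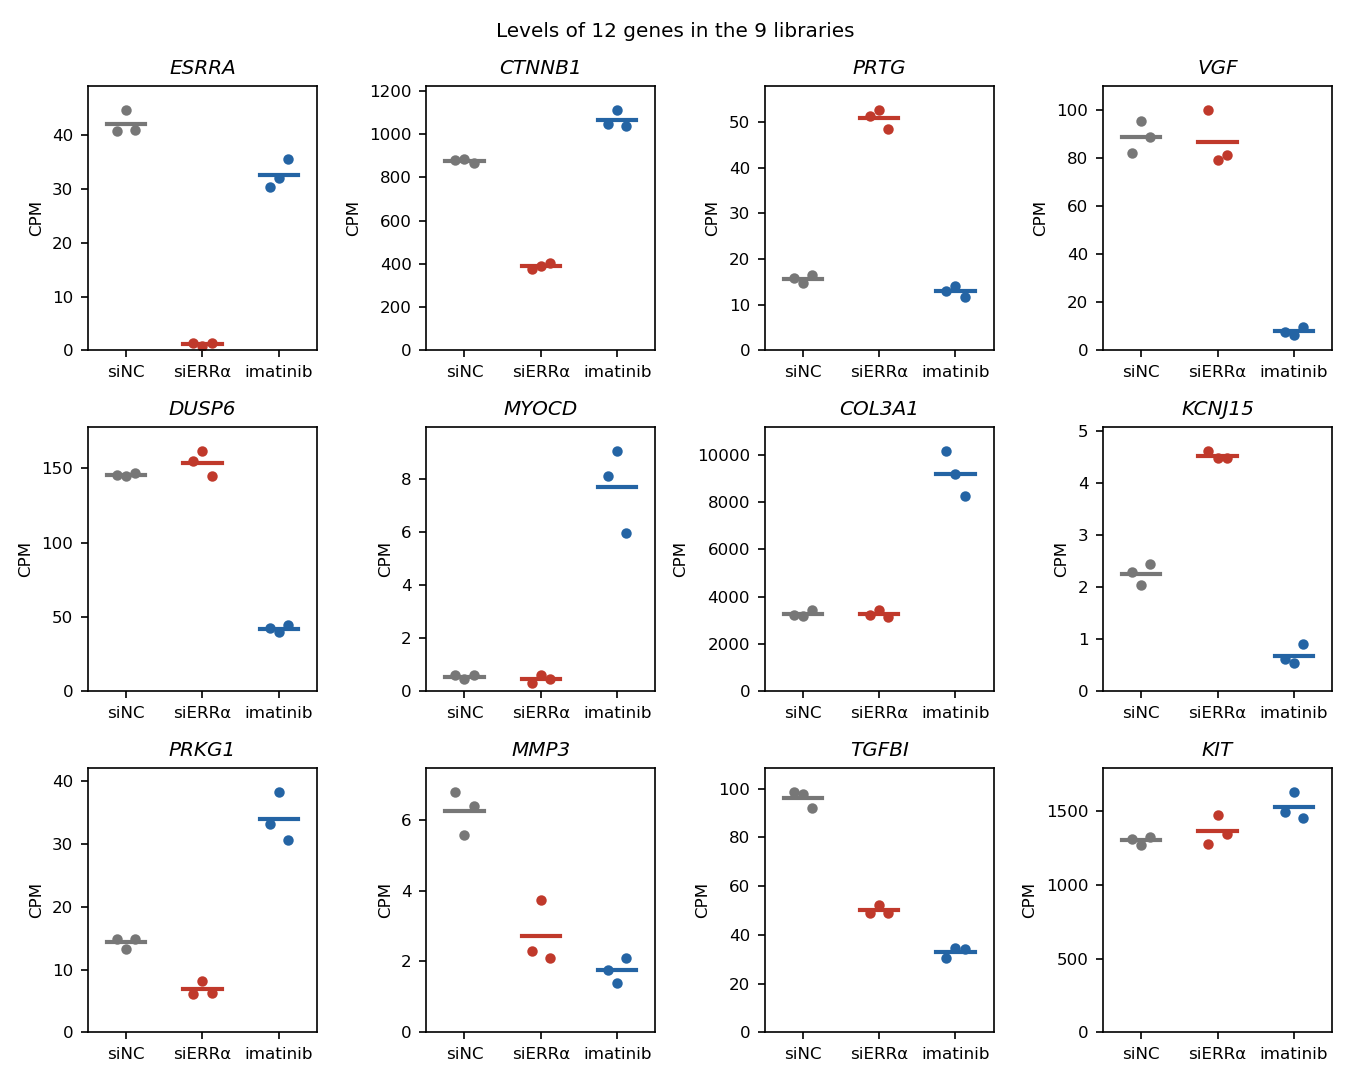
Level in CPM of 12 genes in the 9 libraries shown as points beside a line at the mean of their group, on axes from 0. ESRRA, CTNNB1 and PRTG stand apart in siERRα, VGF, DUSP6, MYOCD and COL3A1 with imatinib, KCNJ15 and PRKG1 in opposite directions in the arms, and MMP3 and TGFBI are under siNC in both.

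Genes of ERK output were mostly higher in siERRα than with imatinib. Of 19 tested genes of ERK feedback and output, 12 were higher in siERRα and 2 lower, with a median difference of 0.92 (−0.004 over all genes tested). Imatinib lowered 14 of the 19 as DEGs against siNC and raised 0, and siERRα lowered 5 and raised 0, where 7.02% and 5.28% of all genes were lower in these comparisons. Of the 14 DEGs between the arms 6 lay on the imatinib side, 2 on the siERRα side, 3 in between and 3 beyond siERRα. DUSP6, the phosphatase that removes phosphate from ERK, stood at 155, 161 and 145 CPM in siERRα and 42.4, 39.6 and 44.4 CPM with imatinib (direct difference 1.87, standard error 0.0619; adjusted p = 8.21e-14, edgeR), with siNC at 145 to 147 CPM. DUSP5, another ERK phosphatase, stood at 45.3 CPM on average in siERRα and at 10.3, 9.35 and 12.4 CPM with imatinib (2.09), and the ETS factor ETV4 (1.49) and the RAS pathway inhibitor SPRY4 (0.99) had the same order. In these 4 genes no siERRα library reached down to an imatinib library, but they were picked by smallest p. The arms did not overlap in 56.9% of all genes tested. The exceptions in the list were DUSP7 (−0.84) and EMP1 (−1.68), lower in siERRα, both on the siERRα side. CCND1, the G1 cyclin that ERK induces, did not pass, at 211, 223 and 208 CPM in siERRα and 207, 205 and 194 CPM with imatinib. It was below siNC (302 to 308 CPM) in both arms, and its direct difference was 0.08 (95% confidence interval −0.03 to 0.19; adjusted p = 0.198, edgeR).

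Immediate early genes, which are transcribed within minutes of growth factor signals, were also mostly higher in siERRα. Of 24 tested, 13 were higher and 1, MYC, was lower (median 0.57). Against siNC imatinib lowered 13 and raised 0, and siERRα lowered 5 and raised 0, against the same 7.02% and 5.28% of all genes. Of these 14 DEGs 8 lay on the imatinib side, and in 3 siNC lay beyond siERRα, above both arm means. ATF3, a stress-induced partner of AP-1, was among the latter, at 19.3, 21.1 and 20.6 CPM in siERRα, 5.15, 5.74 and 6.40 CPM with imatinib and 32.4 to 32.9 CPM in siNC (direct difference 1.82). IER2 (1.32) and the AP-1 subunit gene JUNB (1.12) stood at the siNC level in siERRα, and KLF10 (0.76) above it. MYC went the other way at a low level, 3.56 CPM in siERRα against 5.81 CPM with imatinib (−0.70, adjusted p = 1.65e-04, edgeR).

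Of 17 tested cytokine and NF-κB response genes, 8 were higher and 1 lower (median 0.63), among them LIF and PTGS2 above and NFKBIZ, an inducible regulator of NF-κB targets (1.82). NFKBIZ rose to 22.7 CPM in siERRα and fell to 6.45 CPM with imatinib from 14.6 CPM in siNC. Heat shock chaperones had 7 of 22 higher and 0 lower (median 0.43). HSPA1A, the inducible HSP70, stood at 154 CPM in siERRα and 67.9 CPM with imatinib (1.19, adjusted p = 4.01e-11, edgeR), and the HSP90 partners CHORDC1 (0.93) and AHSA1 (0.60) had smaller differences. The glucose transporter SLC2A3 (1.45), the angiogenic factor VEGFA (1.22) and hexokinase HK2 (0.83) also stood at the siNC level in siERRα and fell with imatinib. However, the glycolysis and hypoxia list as a whole had 3 of 30 higher and 4 lower (median 0.13). These shares, 10% and 13.3%, were near the 10.6% and 15.7% of all genes tested. PGAM1 was among the lower (−0.66), on the siERRα side. Of the cystine transporter, the catalytic chain SLC7A11 stood at 48.7, 52.1 and 41.2 CPM in siERRα and 9.41, 9.81 and 9.29 CPM with imatinib (2.32), with siNC in between at 23.8 to 30.5 CPM, and its partner SLC3A2 was on the imatinib side (1.14).

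Promoters of DEGs were read for short motifs, as a description with no test. RefSeq windows on GRCh38, from 250 bases before a start to 50 after it, were held for 10468 of the 12908 tested protein-coding genes (81.1%), 15452 windows in all. The AP-1 site TGACTCA, on either strand, was in a window of 4.74% of these genes and of 6.15% of the higher DEGs. On the imatinib side it was in 8.82% of the higher DEGs (33 of 374) and 5.43% of the lower DEGs (37 of 681). Of the higher DEGs in between, 3.99% held it (23 of 577). The ETS core CCGGAAGT was in 9.71% of all genes and 9.73% of higher DEGs, but in 3.19% of lower DEGs (56 of 1753). The cAMP response element TGACGTCA was in 3.85% of all genes, 3.76% of higher and 2.97% of lower DEGs, and in 5.94% of lower DEGs on the siERRα side (13 of 219). Other motifs were read in every class as well. The E-box CACGTG was in 12.4% of all genes, 13.1% of higher and 10.5% of lower DEGs, and 16.8% of higher DEGs on the imatinib side. The E2F site TTTCCCGC was in 3.2%, 1.93% and 3.37% of all genes, higher and lower DEGs, and the letters TTTGAA in 14%, 15.1% and 12.8%. With 1 window per gene at the GENCODE start, for 12908 genes, the same AP-1 shares were 2.65% of all genes and 6.26% of the higher DEGs on the imatinib side, and the ETS shares 8.53% of all and 2.22% of lower DEGs. The windows shown are from genes named here that were higher in siERRα, with the motif in capitals, 5′ to 3′ on the strand of the gene, so that reverse matches read as TGAGTCA.
SLC3A2, AP-1, chr11:62881652-62881678, + strand: cgagggtgggTGACTCAgcgtcctcct
HSPA6, AP-1, chr1:161524391-161524417, + strand: gccacccggcTGAGTCAgcccgggcgg
KCNJ15, AP-1, chr21:38272463-38272489, + strand: ttccccctgcTGAGTCAgttccccaga
OSGIN1, AP-1, chr16:83953133-83953159, + strand: gggcccctgcTGACTCAcgcttatgaa
VGF, cAMP response element, chr7:101165631-101165658, - strand: gaatgaacatTGACGTCAatggggcggg
These 5 genes were higher in siERRα than with imatinib, by 1.14 (SLC3A2), 1.69 (HSPA6), 2.71 (KCNJ15), 1.77 (OSGIN1, an oxidative stress response gene) and 3.45 (VGF) on the log2 scale. SLC3A2 and VGF lay on the imatinib side, KCNJ15 and OSGIN1 lay in between, and for HSPA6 siNC lay beyond siERRα. The AP-1 windows shown thus come mostly from genes outside the class with the 8.82% share. HSPA6 held a second AP-1 match that is not shown. The AP-1 letters also occurred in windows of ACSL1 and KLHL21, and the cAMP response element in windows of GNG7 (−2.73), SIVA1 (−1.90) and LTBP1 (−1.37), all of which were lower in siERRα. A match says nothing of binding.

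Growth genes formed the next block. Of 29 tested genes of MYC and ribosome biogenesis, 18 were higher in siERRα and 1, MYC itself, was lower (median 0.56). Of these DEGs 7 lay on the imatinib side and 12 in between. ODC1, the first enzyme of polyamine synthesis, stood at 849, 936 and 874 CPM in siERRα, 709 to 727 CPM in siNC and 433, 457 and 472 CPM with imatinib (0.97, standard error 0.0542). The ribosome assembly factors RRP12 (1.02), WDR43 (0.89) and WDR12 (0.87) also stood higher. Cytosolic ribosomal protein genes themselves differed little, with 1 of 78 higher and 3 lower (median −0.15), RPL26 and RPL37 among the lower at −0.73 and −0.64.

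Mitosis and replication genes went in opposite directions. Of 35 tested mitosis genes 14 were higher in siERRα and 0 lower (median 0.35), and of 37 replication genes 0 were higher and 11 lower (median −0.36). CCNB1, the cyclin of mitotic entry, stood at 240, 272 and 259 CPM in siERRα and 125, 128 and 130 CPM with imatinib (1.01), with siNC at 247 to 254 CPM, so its difference lay on the imatinib side. KIF20A, a kinesin of cytokinesis, lay between, at 241 to 247 CPM in siERRα, 166 to 173 CPM in siNC and 119 to 132 CPM with imatinib (0.98), and the mitotic kinase genes PLK1 (1.08) and AURKA (0.92) were higher as well. MCM3, a subunit of the replicative helicase, stood at 253, 266 and 262 CPM in siERRα, 327 to 335 CPM in siNC and 497, 465 and 489 CPM with imatinib (−0.89). UHRF1, which maintains DNA methylation at replication (−1.18), MCM5 (−0.91) and GINS1 (−0.92) fell in siERRα and rose with imatinib. Against siNC, imatinib had 8 replication genes higher and 0 lower and 8 mitosis genes lower and 0 higher. In siERRα 2 replication genes were lower and 2 mitosis genes higher. Over all genes tested, 10.6% were higher and 7.02% lower with imatinib, and 1.98% higher and 5.28% lower in siERRα. The 27 tested replication-dependent histone genes had 7 higher and 0 lower (median 0.27; 2 lower without imatinib S17 and 1 without siERRα S6). Their transcripts mostly lack a polyA tail, and polyA RNA was sequenced, so that their values may not follow their true levels. Among 21 G1 cyclins and CDK inhibitors 2 were higher and 5 lower (median 0.001). The kinase gene CDK6 was lower on the siERRα side (29.3 CPM in siERRα, 62.6 CPM with imatinib and 56.8 CPM in siNC, −1.09). The 2 higher G1 genes, E2F3 and CDKN2B, lay at the fold threshold (0.51 each), and 0 of them remained DEGs without imatinib S18, siERRα S5 or siNC S3, and 1 without imatinib S17.

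Matrix genes were lower in siERRα than with imatinib. Of 33 tested collagen chains 23 were lower and 2 higher, with a median of −1.23, and 22 of the 25 lay on the imatinib side. COL3A1, a fibrillar collagen and the most abundant chain, stood at 3208, 3417 and 3158 CPM in siERRα, 3177 to 3429 CPM in siNC and 10150, 9196 and 8235 CPM with imatinib (−1.50, standard error 0.0672; adjusted p = 2.81e-12, edgeR). Every imatinib library was thus far above the others, and siERRα matched the control. Summed over the list, collagen chains held 4581 to 4971 CPM in siERRα, 4778 to 5189 CPM in siNC and 11640 to 14880 CPM with imatinib. Imatinib raised 22 chains as DEGs against siNC and lowered 1, and siERRα raised 0 and lowered 2. For all genes tested, imatinib raised 10.6% and lowered 7.02%, and siERRα raised 1.98% and lowered 5.28%. COL5A2 (−1.35), the basement membrane chain COL4A4 (−2.05) and the fibril-associated chain COL12A1 (−1.72) had the pattern of COL3A1, while COL1A1 did not pass, at 21.6 CPM in siERRα and 22.3 CPM with imatinib (−0.05, adjusted p = 0.734, edgeR).

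Other matrix and adhesion genes had the same order. Of 26 integrins and laminins 11 were lower and 4 higher (median −0.41). LAMA5, a basement membrane laminin chain, stood at 62.8, 55.0 and 57.6 CPM in siERRα and 309, 212 and 224 CPM with imatinib (−2.09), with siNC at 63.4 to 72.1 CPM. LAMA4 (−1.82) and LAMC1 (−0.90) were lower too, and ITGA9 was higher (0.73). Elastin (ELN) stood at 563, 507 and 565 CPM in siERRα, 694 to 787 CPM in siNC and 1874, 1748 and 1804 CPM with imatinib (−1.73), so it fell in one arm and rose in the other. The adhesion molecule CADM1 (−1.69) lay between as well, and FBLN5, which assembles elastic fibers (−1.31), lay on the imatinib side. Of 170 tested genes in a list of the Hallmark EMT collection written from background knowledge, 79 were lower in siERRα and 24 higher (median −0.45). Of these 103 DEGs, 54 lay on the imatinib side, 4 on the siERRα side, 32 in between, 12 beyond siERRα and 1 beyond imatinib. Against siNC, siERRα had 24 of the 170 lower and 1 higher, while imatinib had 62 higher and 26 lower. Of all genes tested, siERRα had 5.28% lower and 1.98% higher, and imatinib 10.6% higher and 7.02% lower.

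The EMT genes were thus split. Those lower in siERRα included collagens and elastic fiber genes. The 24 higher ones included VCAM1, a leukocyte adhesion molecule (1.86), which fell with imatinib, and the activin subunit INHBA (1.50) and GADD45A (1.03), which fell in both arms and further with imatinib. Of the 6 EMT transcription factors, SNAI1 was higher (10.9 CPM in siERRα, 6.63 CPM with imatinib, 0.71, adjusted p = 3.66e-06, edgeR) and TWIST1 lower (5.87 and 8.77 CPM, −0.58). SNAI1 lay on the imatinib side, with siNC at 11.2 CPM, and TWIST1 lay between, with siNC at 7.24 CPM. ZEB1 (0.39) and ZEB2 (0.37) passed the test under the fold threshold, and SNAI2 (0.03, adjusted p = 0.829, edgeR) and TWIST2 (0.13, adjusted p = 0.202, edgeR) did not pass. Without imatinib S16, 2 of the 6 were DEGs higher in siERRα.

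Matrix proteases and their inhibitors had 6 of 23 higher and 9 lower (median −0.06), and 3 higher without imatinib S17. PLAU and MMP10 were among the higher, and SERPINE2, a protease inhibitor, was lower (26.7 CPM in siERRα, 51.0 CPM with imatinib, −0.93). Smooth muscle contractile genes had 8 of 16 lower and 1 higher (median −0.60). Besides MYOCD, the enteric smooth muscle actin ACTG2 stood at 7.80, 6.21 and 7.62 CPM in siERRα, 10.7 to 12.1 CPM in siNC and 26.3, 28.5 and 30.3 CPM with imatinib (−1.98). TAGLN, an actin-binding protein of smooth muscle (−1.07), fell in siERRα and rose with imatinib, and the myosin kinase MYLK (−1.18) lay on the imatinib side. Among 20 Notch genes 6 were higher and 5 lower (median −0.02), or 3 lower without imatinib S16. The ligand JAG1 (120 CPM in siERRα, 40.1 CPM with imatinib, 1.59) and the target HES1 (0.91) were higher, and the receptors NOTCH2 (−0.99) and NOTCH3 (−1.05) were lower.

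**Figure D4:**
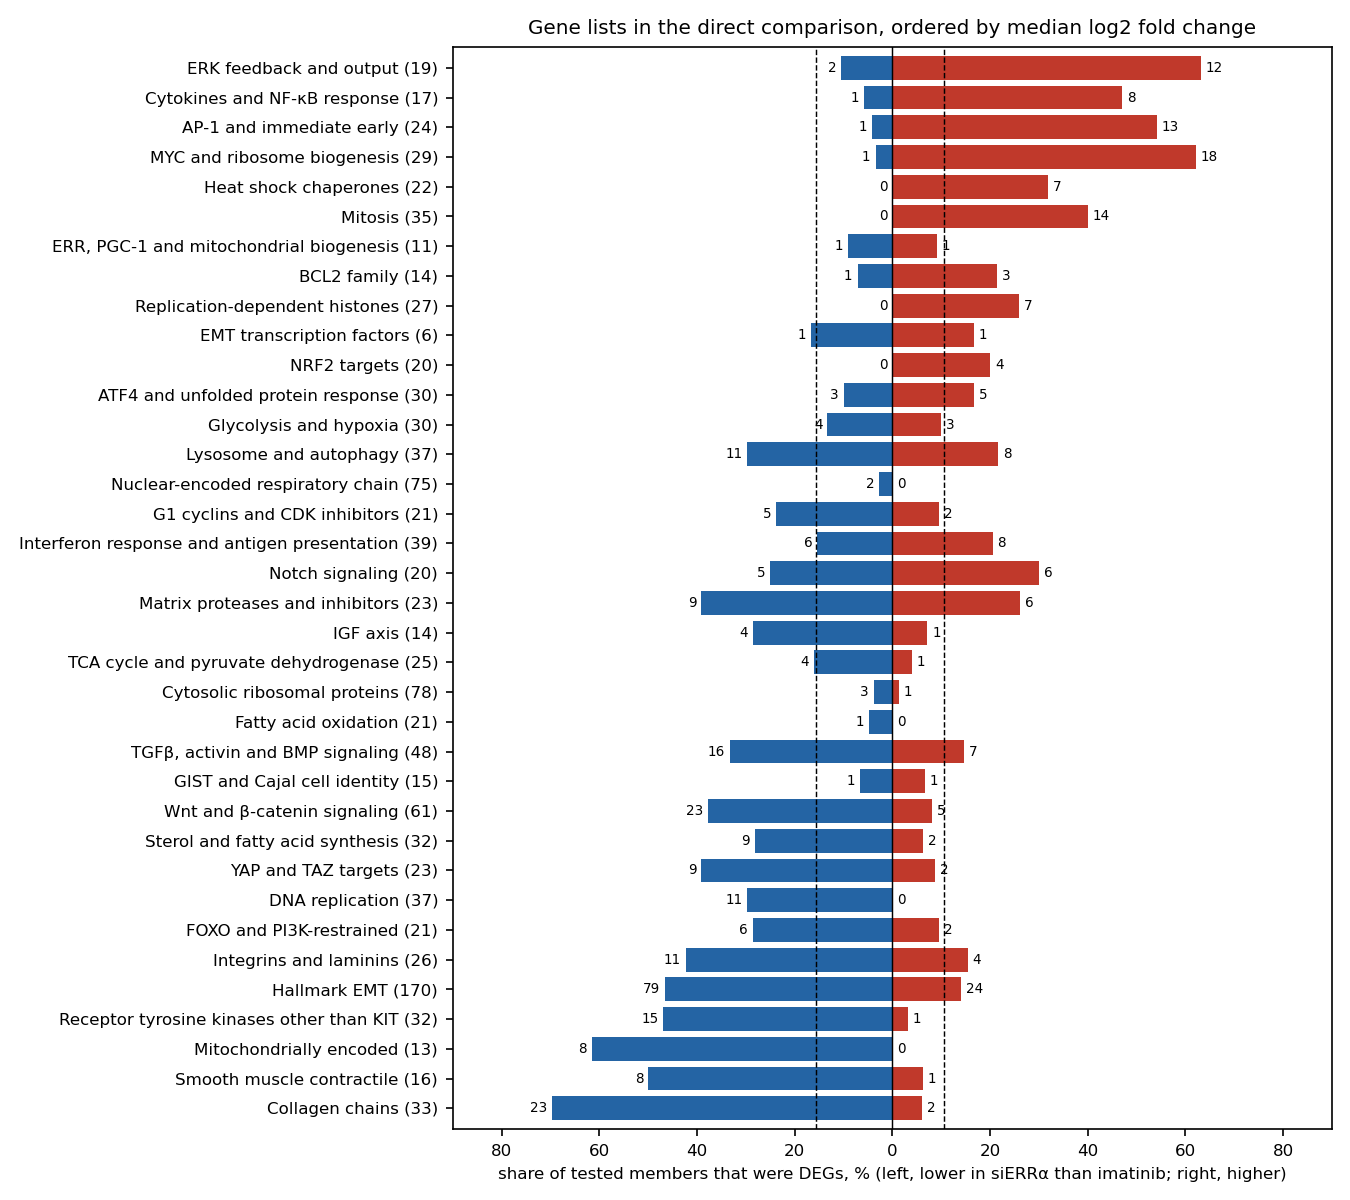
Share of the tested members (number in brackets) of 36 gene lists that were DEGs lower (left, blue) or higher (right, red) in siERRα than with imatinib, as percentages, each bar carrying its gene count; dashed lines mark the shares over all genes tested, 15.7% and 10.6%. Collagen chains lie furthest to the left by median, with 23 lower, and ERK feedback and output furthest to the right, with 12 higher.

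Receptor tyrosine kinases other than KIT were lower in siERRα in 15 of 32 cases and higher in 1 (median −0.48; 2 higher without imatinib S16). The ephrin receptors EPHB1 and EPHA7 stood at 1.32 and 2.92 CPM in siERRα and at 7.09 and 12.4 CPM with imatinib (−2.41 and −2.08). ERBB3 stood at 5.60, 5.93 and 6.43 CPM in siERRα, 8.50 to 9.49 CPM in siNC and 20.5, 18.8 and 18.3 CPM with imatinib (−1.68), and the insulin receptor INSR (−1.33), also restrained by PI3K signaling, had the same order. FOXO1, the transcription factor that AKT holds out of the nucleus, was lower too (6.95 CPM in siERRα, 15.4 CPM with imatinib, −1.14). Over the 21 FOXO and PI3K-restrained genes 6 were lower and 2 higher (median −0.39), and 1 was higher without imatinib S16, imatinib S18, siERRα S5 or siNC S3. AXL was lower at a level near the detection limit, 0.0903 CPM in siERRα and 0.380 CPM with imatinib (−2.05, standard error 0.46). Of 14 IGF axis genes 4 were lower and 1 higher (median −0.08). IGFBP3 stood at 618, 622 and 550.0 CPM in siERRα and 1444, 1367 and 1558 CPM with imatinib (−1.29), with siNC at 1226 to 1321 CPM, on the siERRα side, and IGFBP5 (−1.04) lay between.

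GIST identity genes mostly differed by less than the fold threshold. Of 15 tested, 1 was higher (KITLG, the KIT ligand, 82.3 CPM in siERRα and 50.3 CPM with imatinib, 0.71) and 1 lower (the chloride channel ANO1, 406 and 585 CPM, −0.53), both on the imatinib side (median −0.26). ANO1 was no longer a DEG without imatinib S16, and 2 genes were lower without imatinib S18. By adjusted p alone 12 of the 15 passed, and 11 of the 15 differences were below 0. Over the 16976 genes tested, 8865 passed in this way and 8545 differences were below 0. ETV1, the ETS factor of the GIST lineage (302 CPM in siERRα, 362 CPM with imatinib, −0.27), and PRKCQ, a kinase used as a GIST marker (15.6 and 20.7 CPM, −0.41), passed as lower under the fold threshold, and CD34 (0.43) and FOXF1 (0.42) as higher. In the BCL2 family 3 of 14 were higher (21.4%) and 1 lower (7.14%), with a median of 0.29, against 10.6% and 15.7% of all genes tested. HRK, which promotes cell death, stood at 2.20, 2.23 and 1.93 CPM in siERRα and 0.298, 0.296 and 0.847 CPM with imatinib (2.14), and BMF, also a promoter of cell death, was lower (−1.02). Without imatinib S17 or siERRα S4 the family had 1 higher and 2 lower, and without siERRα S6 also 2 lower.

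Lysosome genes were mixed, with 8 of 37 higher and 11 lower (median 0.12). The lower ones included the protease CTSF, at 28.9, 27.8 and 28.0 CPM in siERRα, 33.0 to 34.6 CPM in siNC and 147, 147 and 135 CPM with imatinib (−2.34, standard error 0.0621; adjusted p = 5.73e-15, edgeR), and the glucosidase GAA (−2.19), CTSD (−1.07) and HEXA (−1.18). All 4 enzymes lay on the imatinib side. Of 32 sterol and fatty acid synthesis genes 9 were lower and 2 higher (median −0.30; 1 higher without imatinib S17, siNC S2 or siNC S3). TM7SF2, a sterol reductase, stood at 19.0 CPM in siERRα and 53.2 CPM with imatinib (−1.49), on the imatinib side. Of 39 interferon and antigen presentation genes 8 were higher (20.5%) and 6 lower (15.4%), with a median of −0.01, and 4 were higher without imatinib S16. GBP4, an interferon-induced GTPase, was higher in each siERRα library (3.12, 3.01 and 3.29 CPM) than in siNC (1.11 to 1.81 CPM) or with imatinib (0.624, 0.728 and 0.738 CPM; 2.17). ATF4 and unfolded protein response genes had 5 of 30 higher (16.7%) and 3 lower (10%), with a median of 0.23. NRF2 targets had 4 of 20 higher (20%) and 0 lower (median 0.25; 1 lower without imatinib S18 or siERRα S5). Over all genes tested 10.6% were higher and 15.7% lower.

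Mitochondria gave a different answer for each genome. Of the 13 mitochondrially encoded genes 8 were lower in siERRα and 0 higher (median −0.58). MT-CO1, a core subunit of cytochrome c oxidase, stood at 1293, 1248 and 1144 CPM in siERRα, 909 to 1131 CPM in siNC and 2628, 2730 and 2618 CPM with imatinib (−1.11). Imatinib raised 11 of the 13 against siNC, and siERRα raised 1 and lowered 0. Among all genes tested imatinib raised 10.6%, and siERRα raised 1.98% and lowered 5.28%. In 5 of the 8 the siNC level lay beyond siERRα, under both arm means. These genes took 0.989% ± 0.0438 of all counts in siERRα and 1.52% ± 0.0346 with imatinib (SD, n = 3 each), and the part of RNA quality in this was not tested. Of 75 nuclear-encoded subunits of the respiratory chain 0 were higher and 2 lower, with a median of 0.01. These were SDHD, a subunit of succinate dehydrogenase (42.3, 49.7 and 43.9 CPM in siERRα; 58.5, 74.5 and 68.6 CPM with imatinib; −0.57), on the siERRα side, and NDUFA2 (−0.61), between. Without imatinib S17 there was 1. ATP5F1A, a subunit of ATP synthase, passed the test at −0.36, also on the siERRα side. Of 11 tested genes of the ERR and PGC-1 list 1 was lower, ESRRA, and 1 higher, the coactivator PPARGC1B (9.03 CPM in siERRα, 5.31 CPM with imatinib, 0.77). There were 2 higher without any 1 of the imatinib libraries or without siERRα S5. TCA cycle and pyruvate dehydrogenase genes had 1 of 25 higher (4%), PDHX (1.11), and 4 lower (16%), IDH2 (−0.97) among them, with a median of −0.09. Fatty acid oxidation genes had 0 of 21 higher and 1 lower (4.76%), ACSL1 (−0.91; median −0.15), or 2 lower without siERRα S6. The shares over all genes tested were 10.6% higher and 15.7% lower.

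The extended ERR recognition site TCAAGGTCA was found in a promoter window of 21 of the 10468 genes (0.201%), of 2 higher DEGs (0.184%) and of 3 lower DEGs (0.171%). Among these, on the siERRα side, was SDHD, shown here because it is also 1 of the 2 nuclear-encoded respiratory subunits called as DEGs. By adjusted p alone 25 of the 75 subunits passed. The capitals mark the site on the reverse strand.
SDHD, ERR site, chr11:112086874-112086902, + strand: ggttggtggaTGACCTTGAgccctcagga

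Genes on the siERRα side moved mainly with knockdown, though several moved a little with imatinib as well. Of the 10 with the largest differences, 3 are given above (ESRRA, MOBP and MPP3). PRTG, a cell surface protein of the immunoglobulin superfamily, stood at 51.3, 52.6 and 48.5 CPM in siERRα and at 12.9, 14.2 and 11.6 CPM with imatinib (1.98), with siNC at 14.7 to 16.5 CPM. MBD3, part of the NuRD complex that compacts chromatin, stood at 28.2, 24.2 and 28.7 CPM in siERRα and 114, 106 and 123 CPM with imatinib (−2.08), against 78.1 to 88.1 CPM in siNC, so it fell in siERRα and rose by less with imatinib. COPRS, which recruits an arginine methyltransferase to histones (8.67 and 32.4 CPM, −1.90), SIVA1, which promotes cell death (35.3 and 131 CPM, −1.90), the RNA-binding protein gene BICC1 (−1.62), CTH, an enzyme of cysteine synthesis (−1.61), and KLHL21, a mitotic ubiquitin ligase adaptor (−1.61), were lower. Their adjusted p ran from 2.43e-13 to 2.71e-07 in edgeR, and no siERRα library overlapped an imatinib library in any of them. They were picked as DEGs with large direct differences, so this was nearly fixed by the choice. The arms did not overlap in 56.9% of all genes tested.

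CTNNB1, which encodes β-catenin, was the most abundant gene of this kind named here apart from IGFBP3. It stood at 379, 391 and 403 CPM in siERRα and at 1048, 1112 and 1040 CPM with imatinib, with siNC at 868 to 885 CPM. The direct difference was −1.45 (standard error 0.0517; adjusted p = 1.55e-13, edgeR). Wnt genes as a list had 23 of 61 lower and 5 higher (median −0.29; 3 higher without siERRα S6), with 15 of these DEGs in between, 8 on the imatinib side and 4 on the siERRα side. AXIN2, a target and brake of β-catenin, stood at 9.42 CPM in siERRα, 13.9 CPM in siNC and 22.0 CPM with imatinib (−1.22). The ligands WNT5B (−1.42) and WNT11 (−1.27) also fell in siERRα and rose with imatinib, the receptor FZD5 (−0.66) was lower on the siERRα side, and the receptor FZD6 did the opposite, at 97.3, 108 and 95.5 CPM in siERRα, 46.2 to 50.6 CPM in siNC and 23.0, 26.5 and 27.1 CPM with imatinib (1.97). The antagonist DKK4 rose in both arms, to 17.1 CPM in siERRα and 11.9 CPM with imatinib from 8.85 CPM.

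YAP and TAZ targets had 9 of 23 lower and 2 higher (median −0.31). LATS2, a kinase that restrains YAP and is induced by it, stood at 78.5, 73.4 and 71.9 CPM in siERRα and 143, 129 and 131 CPM with imatinib (−0.85), on the siERRα side, and CCDC80, a matrix protein gene, was on the imatinib side (−1.08). Against siNC 9 of these 23 genes were lower in siERRα and 0 higher, and with imatinib 6 were lower and 3 higher. The shares over all genes tested were 5.28% lower and 1.98% higher in siERRα, and 7.02% lower and 10.6% higher with imatinib. Of 48 genes of TGFβ, activin and BMP signaling 16 were lower and 7 higher (median −0.24). The secreted antagonist FST stood at 29.8, 30.5 and 28.2 CPM in siERRα and 88.9, 99.3 and 92.0 CPM with imatinib (−1.66), and the latency protein LTBP1 (−1.37) and the ligand BMP7 (−1.32) were lower too. The type I receptor TGFBR1 fell in both arms, more in siERRα, to 96.5 ± 7.13 CPM against 154 ± 4.88 CPM with imatinib and 188 ± 11.9 CPM in siNC (SD, n = 3 each; −0.67). CDH11, a mesenchymal cadherin, and PDGFRB were lower by less or just over the fold threshold (−0.35 and −0.52 in that order), and ZBTB4 rose in both arms, more in siERRα (0.44).

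**Figure D5:**
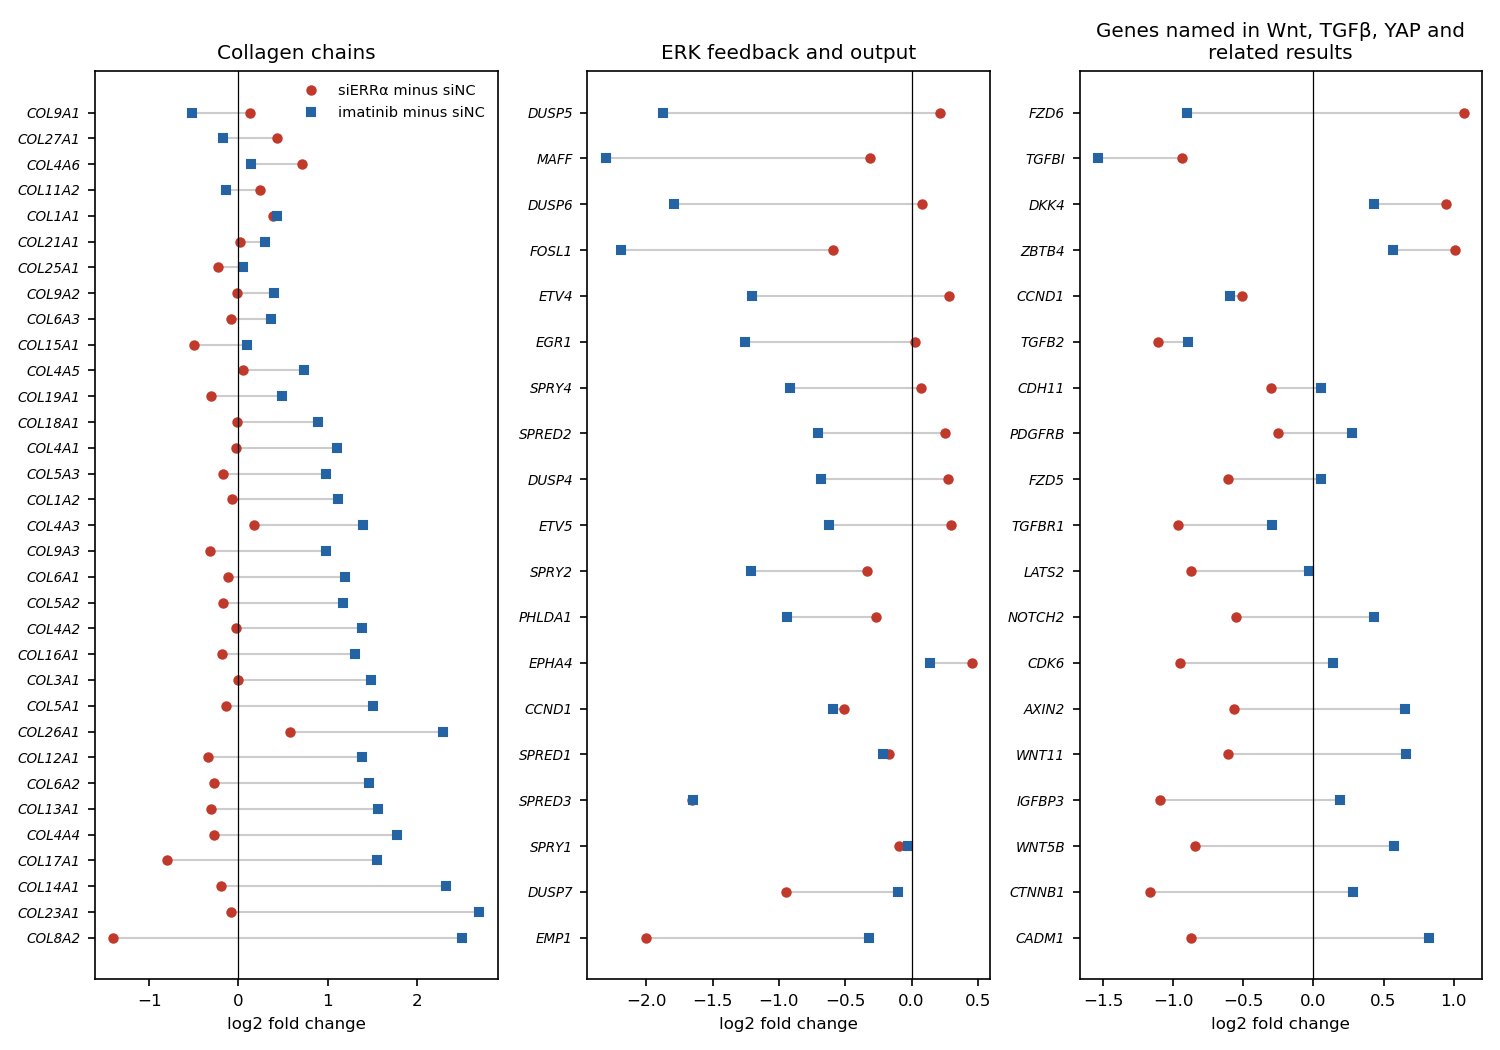
Log2 fold change against siNC of siERRα (red circles) and imatinib (blue squares) for the 33 tested collagen chains, the 19 tested genes of ERK feedback and output, and 19 genes named in the text, ordered by the direct difference. Both arms share the siNC libraries. In COL3A1 siERRα lies at −0.01 and imatinib at 1.49, in DUSP6 at 0.08 and −1.79, and in CTNNB1 at −1.17 and 0.28.

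A 7-base sequence, ATGTTCT, had been singled out from an earlier look at these values of siERRα against siNC, so its share on the siERRα side is a description and supports nothing. Taking 1 canonical transcript for each of 12744 tested protein-coding genes, 19.0% held it in the 3' UTR. Among DEGs lower on the siERRα side it was in 113 of 280 (40.4%), against 28.2% of lower DEGs in between and 16.1% of those on the imatinib side. Higher DEGs held it in 13.6% to 19.1% of cases over the same classes. Median 3' UTR lengths were 1703, 1589 and 1320 bases in the lower classes, and within lengths of 1000 to 3000 bases the shares were 40.7%, 26.8% and 15.4%. The sites of 4 genes with differences on the siERRα side are shown, each with the heptamer in capitals, from GENCODE transcripts on GRCh38.
CTNNB1, exon 15, chr3:41239504-41239530, + strand: gaacattggaATGTTCTcagatttctg
SIVA1, exon 4, chr14:104759592-104759618, + strand: tgccttttacATGTTCTattttgtatc
KLHL21, exon 4, chr1:6592180-6592206, - strand: actcgtagagATGTTCTcagcaggaag
PRTG, exon 20, chr15:55618305-55618331, - strand: atgttcactgATGTTCTaaaatcaaag
The first 3 genes were lower in siERRα, and PRTG, which holds the same letters, was higher. Over all genes with the heptamer the median log2 fold change was −0.10 in siERRα and −0.02 with imatinib against siNC, and without it 0.03 and 0.01.

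In 1276 genes both arms passed an adjusted p under 0.05 against siNC in opposite directions with siNC in between, among protein-coding genes of at least 1 CPM. No fold threshold was set, and both comparisons use the same siNC libraries, so this count is only a description. Of the 10 genes with the largest smaller change, 8 were lower in siERRα and higher with imatinib. PRKG1, the cGMP-dependent kinase that relaxes smooth muscle, stood at 6.18, 8.18 and 6.31 CPM in siERRα, 13.3 to 14.9 CPM in siNC and 33.3, 38.3 and 30.7 CPM with imatinib, so that the direct difference was −2.30 (standard error 0.108; adjusted p = 4.67e-12, edgeR). HSPA12B, an endothelial member of the HSP70 family, stood at 0.768, 1.89 and 4.12 CPM on average in siERRα, siNC and imatinib (−2.43). ZNF185, LRATD2, CASKIN1, RAI2, FAM131B and MVB12B had direct differences between −2.82 and −2.20. KCNJ15 stood the other way, at 4.61, 4.48 and 4.48 CPM in siERRα, 2.04 to 2.44 CPM in siNC and 0.624, 0.539 and 0.902 CPM with imatinib, as did GBP4.

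In 826 genes of the same kind both arms passed against siNC in the same direction, and the 10 with the largest smaller change all fell in both. The count of 826 is likewise only a description, because the siNC libraries are shared. HSPA6, a stress-induced HSP70, stood at 26.9, 30.3 and 28.3 CPM in siERRα and 9.84, 6.82 and 9.89 CPM with imatinib, against 61.3 to 63.3 CPM in siNC, so that it was higher in siERRα by 1.69 (95% confidence interval 1.47 to 1.90). TGFBI, an adhesion protein of the matrix named for its induction by TGFβ, went from 91.9 to 98.6 CPM in siNC to 49.1, 52.3 and 49.0 CPM in siERRα and 30.5, 34.4 and 34.4 CPM with imatinib (direct difference 0.60, 95% confidence interval 0.46 to 0.74). IGDCC3, a cell surface protein, had a direct difference of 1.19. The arms were closer in TGFB2, a TGFβ ligand, at 4.59, 4.50 and 3.89 CPM in siERRα and 4.66, 5.17 and 5.33 CPM with imatinib (−0.22, 95% confidence interval −0.46 to 0.02). NNMT, the methyltransferase of nicotinamide (0.18, −0.12 to 0.48), and THSD1 (−0.21, −0.72 to 0.30) had intervals of the difference that include 0, while MPZL3 differed by −0.38 (−0.60 to −0.16). For MMP3, a matrix protease, the difference of 0.64 passed (2.31, 3.75 and 2.11 CPM in siERRα; 1.76, 1.40 and 2.10 CPM with imatinib; adjusted p = 0.014, edgeR) but not without siERRα S5 (0.333, adjusted p = 0.139) or imatinib S17 (0.494, adjusted p = 0.0784). KLHDC8A (0.51) lost its call without imatinib S16 (0.347, adjusted p = 0.0683). GPR3 (0.48, adjusted p = 0.0635) passed without imatinib S18 (adjusted p = 0.0489) or siERRα S4 (0.0493), and NNMT without imatinib S18 (0.0129).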

How the data were processed

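PolyA RNA of T1 cells was sequenced as paired reads. Per the submitters' processing notes, the authors used STAR 2.7.3a for alignment (build GRCh38) and featureCounts 2.0.1 for gene counts, and deposited those raw counts for 61209 symbols. No source used here gives the annotation release or the strand setting, so antisense or overlapping genes may share reads. A deposited table of labels was not used. Columns were assigned to groups by the S number they share with the titles.

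Genes passing filterByExpr (minimum count 10, minimum total 15) were kept, TMM factors were applied, and the direct contrast was tested with edgeR 4.0.16 (quasi-likelihood, R 4.3.3) in 1 fit over 9 libraries, with Benjamini-Hochberg adjustment over 16976 genes. DESeq2 1.42.0 and limma 3.58.1 (voom) served as alternatives. Intervals are at 95%. The position of siNC used a pseudocount of 0.5. The principal components used 500 genes. Gene types, positions and 3' UTRs came from GENCODE 44, joined by symbol (60726 matched). On simulated data the test recovered 87% of 100 genes changed by 0.7 and 96% of 100 changed by 1 on the log2 scale in the direct contrast. There were 3 false calls among the unchanged genes, with 16697 genes tested in all. Only these genes were changed, in random directions, so the simulation does not cover a contrast with as many DEGs as the real one.

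Named genes are ESRRA and KIT, the 12 highest and 12 lowest protein-coding DEGs of at least 1 CPM without overlap, 10 moved oppositely, 10 moved alike and 10 on the siERRα side, up to 4 members of each of 36 lists by p, and genes the study names; the others in the text (DUSP7, EMP1, CDKN2B, COL1A1, COL12A1, VCAM1, INHBA, ETV1 and PRKCQ) were picked after their values were seen. The comparison, lists and heptamer were chosen with earlier results of these data known. A few genes are not reported here.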

Additional observations from a re-analysis of the deposited data

How the results depend on the processing

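The counts of 1795 higher and 2673 lower DEGs stayed within 1.5 times under other normalizations, tests and filters and without each library in turn (1691 to 1832 higher and 2611 to 2773 lower without 1 library), and at these thresholds 58.1% to 62.6% of DEGs were lower. Other thresholds moved the counts and this share. With a log2 fold change of 1 or more required in either direction, 577 were higher and 1140 lower, and by adjusted p alone 4344 higher and 4521 lower. The column numbers 1 to 3 did not pair the libraries (correlations of same-numbered deviations from −0.0996 to 0.147), and with the number as a replicate block there were 1771 higher and 2667 lower. Among the values of named genes under the alternatives, 3443 kept their side of an adjusted p of 0.05. Another 6 no longer passed and 3 newly passed, each when a library was left out, and those genes are named above. Values that passed in both fits also kept their direction, and direction was not compared where neither passed. That tally takes no account of the fold threshold, which genes near 0.5 such as ANO1 and E2F3 also crossed. None of the G1 genes was a higher DEG with upper quartile factors, with at least 10 counts in every sample or with only the 6 samples compared. Of the list counts 1242 stayed within 1.5 times and 54 did not, most of them counts of 3 or fewer genes. Promoter windows at GENCODE starts were added after seeing the data. Low genes such as AXL rest on few counts, and groups of 3 libraries limit every p.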
